A study of Mus musculus with 6 samples.

Results

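The genes examined were the adult globin genes, the gene pair for the first enzyme of heme synthesis and a small set of red cell genes, in the livers of mice that lost Spns1 after birth. They were chosen by name as Hba-a1, Hba-a2, Hbb-bs, Hbb-bt, Alas1, Alas2, Slc4a1 and Bpgm, and all 8 were found among the 54532 genes of the count table. RNA-Seq was made from 6 livers, 3 of gSpns1-cKO mice and 3 of control mice, with 1 library per mouse. Per the methods, gSpns1-cKO mice were C57BL/6 Spns1 fl/fl mice with Rosa26Cre-ER T2, a Cre recombinase that tamoxifen activates in the whole body, and tamoxifen given after birth removed exon 3. Controls were floxed littermates per the methods and wild type per the sample labels. Age at collection, sex, tamoxifen in the controls and perfusion of these livers were not given in the sources used here.

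Hemoglobin is built from alpha chains and beta chains, each holding a heme. It is made in bulk by maturing red cells, before birth in sites such as the fetal liver and after birth in the bone marrow and spleen. Heme synthesis starts with 5-aminolevulinate synthase, which has a general form, ALAS1, controlled by the heme need of hepatocytes, and a form known from red cell precursors, ALAS2, controlled by iron and erythroid factors. An adult liver holds red cells and reticulocytes in its blood, and its hepatocytes make heme chiefly for cytochromes, while its macrophages clear old red cells and recover their iron.

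The globin genes exist as near-identical pairs, which limits what their separate counts can say. The coding sequences of Hba-a1 and Hba-a2 are 429 bases long and differ at 1 base, C381T, counted from 1 at the first base of the start codon, with the base of Hba-a1 first. Those of Hbb-bs and Hbb-bt are 444 bases long and also differ at 1 base, C417T, with the base of Hbb-bs first. Identity was 99.8% in both pairs, and the longest identical runs were 380 and 416 bases. The stretches around these bases are shown because only a read that covers the capital letter tells the copies apart within the coding part (transcripts of GENCODE M21).
Hba-a1: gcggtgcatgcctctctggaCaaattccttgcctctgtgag
Hba-a2: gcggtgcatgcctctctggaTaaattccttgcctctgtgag
Hbb-bs: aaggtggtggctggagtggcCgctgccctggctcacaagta
Hbb-bt: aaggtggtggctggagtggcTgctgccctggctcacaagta
How reads that match both copies were counted is not given in the sources used here, so the values of single copies are uncertain, and the copies were also summed per pair.

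The windows before the transcription start of 7 of the 8 members were read from RefSeq (GRCm38.p6) and searched on both strands for GATAA, the core that GATA factors bind, CACCC, the core of Kruppel-like factor sites, CCAAT, the box of many promoters, and TATAA, the TATA box. Of 32851 windows of 200 bases, 18.1% held the GATA core, 45.5% the CACCC core, 29.3% the CCAAT box and 18.5% the TATA box. Both alpha genes held all 4 motifs, and their windows were identical over the 197 bases that could be aligned. Both beta genes held the CACCC core, the CCAAT box and the TATA box. Alas2 held the GATA core and the CACCC core, Bpgm held the CCAAT box, and the windows of the 2 Alas1 starts held none of the 4. No matches overlapped. The bases upstream of the annotated start of Hba-a2 (chr11:32296292-32296488, plus strand) and of Alas2 (chrX:150547217-150547374, plus strand) are shown, with the motif letters in capitals, because Hba-a2 shares its window with Hba-a1, which rose, while Alas2 fell.
Hba-a2: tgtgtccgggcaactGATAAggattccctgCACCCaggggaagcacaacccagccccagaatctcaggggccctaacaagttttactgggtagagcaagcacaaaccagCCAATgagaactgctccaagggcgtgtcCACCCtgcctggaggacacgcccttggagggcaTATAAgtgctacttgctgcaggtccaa
Alas2: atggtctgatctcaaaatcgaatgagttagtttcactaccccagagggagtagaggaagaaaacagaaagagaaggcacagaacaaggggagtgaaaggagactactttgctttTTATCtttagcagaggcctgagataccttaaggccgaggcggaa
The capitals in Alas2 are the GATA core read on the other strand, and its CACCC matches lie upstream of the RefSeq start but past the earlier start of the deposited annotation, where the bases shown end. A match is a description of the letters only.

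The libraries held between 30350002 and 35295611 counts. Levels are given as counts, or as CPM, the counts relative to a library total corrected by edgeR's TMM factors, which were 0.834 to 0.873 for controls and 1.16 to 1.18 in gSpns1-cKO livers. Of 15449 genes with enough counts to test, 3286 were higher and 3166 lower in gSpns1-cKO livers by the quasi-likelihood test of edgeR (Benjamini-Hochberg adjusted p under 0.05, the limit used throughout). Scaling by library size only shifted the median gene from 0.01 to 0.46 in log2 fold change and the share of calls that were higher from 50.9% to 88.3% (64.7% with upper-quartile scaling), so directions are relative to TMM scaling. Spns1 itself had 1008, 1562 and 875 counts in controls against 642, 1175 and 698 in gSpns1-cKO livers, a log2 fold change of -0.87 ± 0.25 (SE, adjusted p = 0.030). Its call was lost without control replicate 2 (adjusted p = 0.0785), gSpns1-cKO replicate 1 (0.0910) or gSpns1-cKO replicate 3 (0.0830), and with library size only (0.213) or upper-quartile scaling (0.0635). The counts are per gene, so the loss of exon 3 could not be seen. The hepatocyte marker Alb had between 1346605 and 2175970 counts in the 6 libraries, so the labelled tissue carried its defining transcript.

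Of the members, 7 had enough counts to be tested, and 3 of these 7 passed the test, where 41.8% of all tested genes passed. Alas2 fell by 3.17 on the log2 scale, and Hba-a1 and Hbb-bs rose by 1.16 and 1.11. Among all tested genes 21.3% rose and 20.5% fell. The groups did not overlap in Hba-a1, Hba-a2, Hbb-bs and Alas2, 4 of the 7, and in 54.1% of all tested genes. The share of members that passed was therefore near that of all genes, and the size of the Alas2 change and its contrast with the globins are described in turn.

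**Figure D1:**
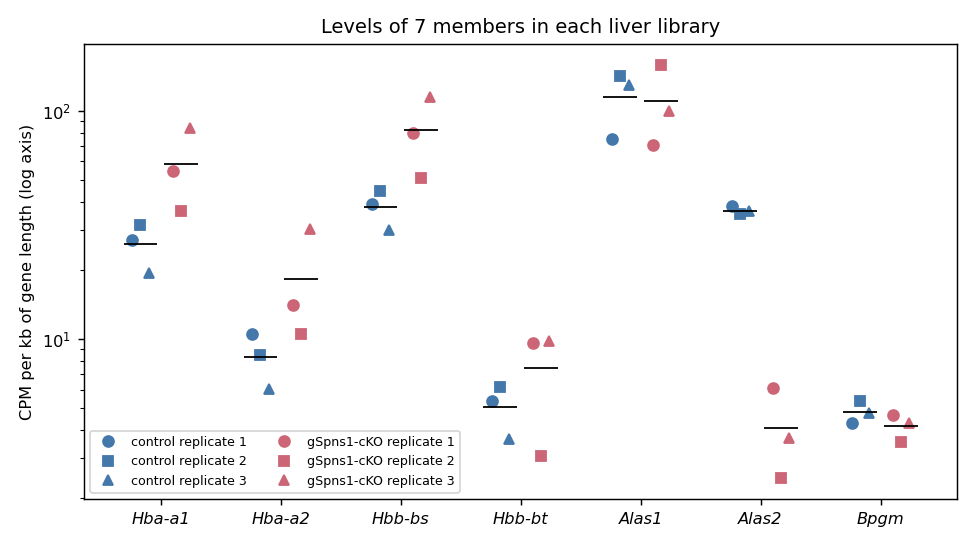
CPM per kb of gene length on a log axis for 7 members in each library, with control livers in blue, gSpns1-cKO livers in red, a symbol for each replicate and a black line at the group mean. Alas2 lies between 35.2 and 38.3 in controls but between 2.45 and 6.11 in gSpns1-cKO livers, while Hba-a1 and Hbb-bs are higher in all 3 gSpns1-cKO livers. Slc4a1 is not drawn because of its few counts.

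Between genes, levels were compared per length of the gene as deposited. In control livers Alas1 was highest at 115 ± 35.3 CPM per kb (SD, n = 3, as for the other values here), followed by Hbb-bs at 37.9 ± 7.43, Alas2 at 36.6 ± 1.59 and Hba-a1 at 26.1 ± 6.17. Hba-a2 at 8.34 ± 2.23, Hbb-bt at 5.05 ± 1.27 and Bpgm at 4.79 ± 0.536 came lower. Neighbours overlapped for Hbb-bs with Alas2, Hba-a2 with Hbb-bt and Hbb-bt with Bpgm. In gSpns1-cKO livers the order was Alas1 at 110 ± 45.2, Hbb-bs at 82.0 ± 32.4, Hba-a1 at 58.2 ± 24.0, Hba-a2 at 18.3 ± 10.6, Hbb-bt at 7.5 ± 3.83, Bpgm at 4.16 ± 0.560 and Alas2 at 4.07 ± 1.86. Alas2 thus went from the range of Hbb-bs to the range of Bpgm. There Alas1 overlapped with Hbb-bs, Hbb-bs with Hba-a1, and Bpgm with both Hbb-bt and Alas2. The globin levels may miss reads that both copies share.

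Alas2, the red cell form of the enzyme that starts heme synthesis (ENSMUSG00000025270, chromosome X from 150547375 to 150570638, plus strand), showed the largest change of the members. Its counts were 2588, 2603 and 2202 in controls. In gSpns1-cKO livers they were 528, 226 and 346. The lowest control library was well above the highest gSpns1-cKO library, and the control livers lay close together, at 87.9 ± 3.83 CPM against 9.79 ± 4.48 CPM (SD, n = 3 each). The fitted level was 8.98-fold higher in control livers, a log2 fold change of -3.17 ± 0.33 (SE, adjusted p = 0.000772). Alas2 was called lower in all 14 alternative fits, with log2 fold changes between -3.58 and -2.73 and adjusted p up to 0.00688. The annotated span of Alas2 overlaps Apex2, a gene on the other strand with 225, 273 and 226 counts in controls against 256, 370 and 274 in gSpns1-cKO livers. As the strand setting is not given, reads of the overlapping stretch cannot be told apart, and the Alas2 counts of gSpns1-cKO livers, which are of similar size, may hold some of them. All 6 livers had Y-linked transcripts, with Ddx3y between 1731 and 2568 counts, and at most 5 counts of Xist. This is the pattern of male mice, so females were not covered here.

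Alas1, the form that sets heme synthesis in hepatocytes (ENSMUSG00000032786, chromosome 9 from 106233455 to 106248654, minus strand), spread widely within both groups. Its counts were 13029, 26897 and 20187 in controls. In gSpns1-cKO livers they were 15707, 37764 and 24312. The groups overlapped, at 712 ± 218 CPM in control and 680 ± 279 CPM in gSpns1-cKO livers. The log2 fold change was -0.07 ± 0.35 (SE, adjusted p = 0.894), and its sign turned with library size only, with upper-quartile scaling and without control replicate 2, control replicate 3 or gSpns1-cKO replicate 1, never with a call. An antisense gene that overlaps Alas1 had at most 3 counts in a library. With an SE of this size, a change smaller than the spread between mice was not detectable.

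Within a library, the ratio of Alas1 to Alas2 per kb does not depend on scaling. It was 1.96, 4.02 and 3.57 in controls against 11.6, 65.0 and 27.3 in gSpns1-cKO livers. On the log2 scale the mean ratio was 1.60 ± 0.56 in control and 4.78 ± 1.24 in gSpns1-cKO livers (SD, n = 3 each), a difference of 3.17. Each gSpns1-cKO liver was above each control liver (exact permutation test, two-sided, p = 0.1, the smallest p for 3 against 3). Alas1 transcripts exceeded those of Alas2 in every liver.

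The alpha globin genes, which encode the same hemoglobin chain, lie in the same cluster on the plus strand of chromosome 11. Hba-a1 (ENSMUSG00000069919, from 32283511 to 32284465) had 623, 788 and 398 counts in controls against 1597, 1130 and 2674 in gSpns1-cKO livers. Hba-a2 (ENSMUSG00000069917, from 32296489 to 32297298) had 197, 174 and 102 counts in controls against 338, 270 and 797 in gSpns1-cKO livers. Every gSpns1-cKO library was above every control library for both genes, although for Hba-a2 the nearest libraries were 7.01 CPM in control and 7.04 CPM in gSpns1-cKO livers. Hba-a1 rose 2.23-fold, with a log2 fold change of 1.16 ± 0.35 (SE, adjusted p = 0.0413). For Hba-a2 the log2 fold change was 1.14 ± 0.44 and did not pass the test (adjusted p = 0.0866). Summed as a pair, the log2 fold change was 1.15 ± 0.37, just short of the threshold (adjusted p = 0.0529).

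The beta globin genes lie on the minus strand of chromosome 7. Hbb-bs (ENSMUSG00000052305, from 103826534 to 103828096) had 844, 1055 and 581 counts in controls against 2213, 1491 and 3483 in gSpns1-cKO livers. Hbb-bt (ENSMUSG00000073940, from 103812524 to 103813996) had 106, 133 and 65 counts in controls against 242, 83 and 272 in gSpns1-cKO livers. The groups were apart for Hbb-bs and overlapped for Hbb-bt, where gSpns1-cKO replicate 2 was the lowest of all 6 libraries in CPM. Hbb-bs rose 2.16-fold, with a log2 fold change of 1.11 ± 0.32 (SE, adjusted p = 0.0358). For Hbb-bt the log2 fold change was 0.56 ± 0.43 (adjusted p = 0.330). The summed beta pair passed the test with 1.06 ± 0.33 (adjusted p = 0.0459).

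**Figure D2:**
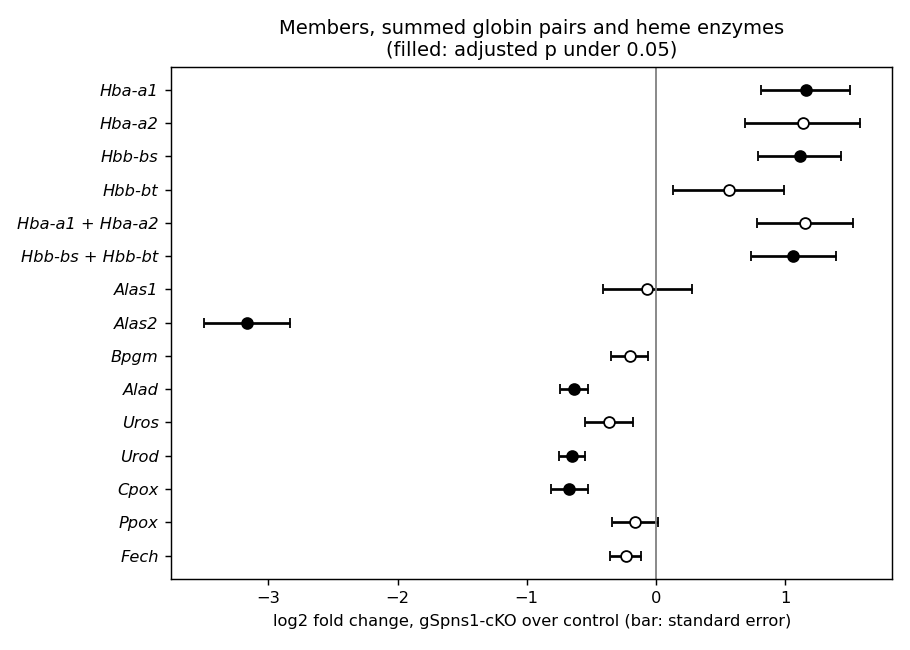
Log2 fold change of gSpns1-cKO over control livers (x axis) for the 7 tested members, the summed globin pairs and 6 further heme enzymes, with bars for the standard error and filled points for an adjusted p under 0.05. Alas2 at -3.17 stands far below the other genes, the globins lie between 0.56 and 1.16, and the 6 enzymes lie between -0.67 and -0.16.

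The calls of the globin genes depended on single mice. Without control replicate 1, control replicate 2, control replicate 3 or gSpns1-cKO replicate 1, neither Hba-a1 (adjusted p = 0.111, 0.0674, 0.0999 and 0.109) nor Hbb-bs (0.0998, 0.0649, 0.0935 and 0.107) passed the test. Without gSpns1-cKO replicate 2 all 4 globin genes passed, Hba-a2 with an adjusted p of 0.0280 and Hbb-bt with 0.0132. Without gSpns1-cKO replicate 3, the library with the most globin counts, the log2 fold change of the alpha pair was 0.75 (adjusted p = 0.0434) and that of the beta pair 0.74 (0.0622). In the same fit Hba-a1 (0.80, adjusted p = 0.0403) and Hbb-bs (0.79, 0.0362) still passed, while Hba-a2 was at 0.56 and Hbb-bt at 0.32. Over all mice left out in turn Hba-a2 ranged from 0.56 to 1.41 and Hbb-bt from 0.32 to 0.94. The alpha pair also passed without gSpns1-cKO replicate 2 (0.0113). The beta pair was lost without control replicate 1 (0.119), control replicate 2 (0.0775), control replicate 3 (0.115) or gSpns1-cKO replicate 1 (0.134). The direction held for both pairs in all 14 alternative fits, with log2 fold changes between 0.75 and 1.59 for the alpha pair and between 0.74 and 1.5 for the beta pair, and each pair was called in 7 of the 14.

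**Figure D3:**
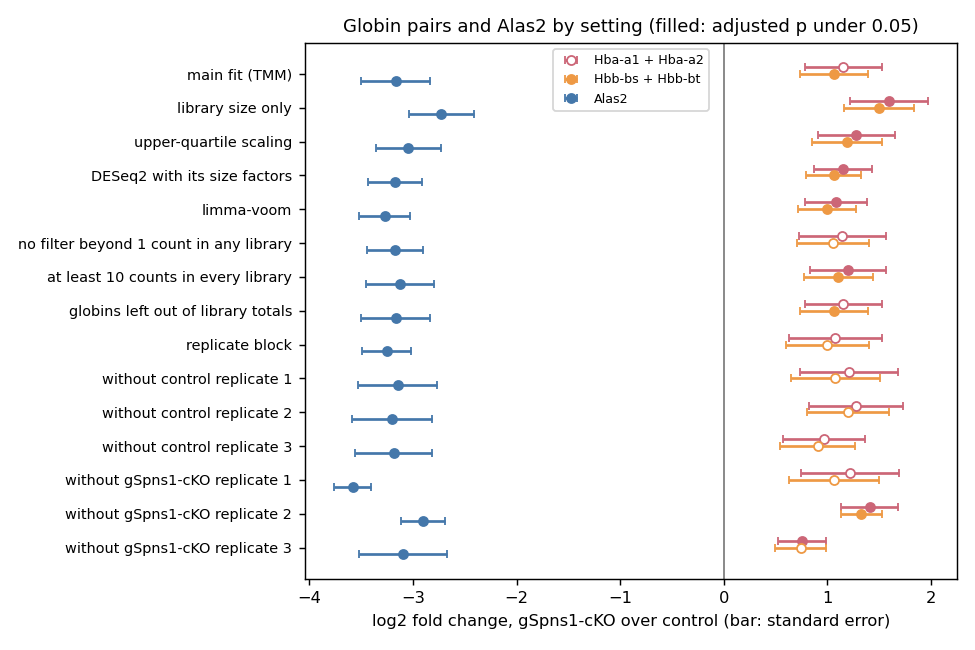
Log2 fold change with standard error (x axis) of the alpha pair in red, the beta pair in orange and Alas2 in blue for the values reported and 14 alternative settings, filled where the adjusted p is under 0.05. Alas2 is filled in every row, between -3.58 and -2.73, and each globin pair is filled in 7 of the 14 alternatives.

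Together the 4 globin genes had 1770, 2150 and 1146 counts in controls against 4390, 2974 and 7226 in gSpns1-cKO livers. This was 0.00510% ± 0.00119 of all counts in control and 0.0149% ± 0.00617 in gSpns1-cKO livers (SD, n = 3 each). The shares did not overlap (exact permutation test, two-sided, p = 0.1), and the difference between the means of 0.00977 percentage points was 0.00651 without gSpns1-cKO replicate 3. The share does not correct for the TMM factors, and in TMM-scaled CPM the sums were 59.4 ± 12.7 and 128 ± 53.4. In bulk tissue, a change in the number of cells of a type and a change in RNA per cell cannot be told apart.

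The proportion of alpha to beta transcripts overlapped between the groups. The ratio of alpha to beta counts was 0.863, 0.810 and 0.774 in controls against 0.788, 0.889 and 0.924 in gSpns1-cKO livers (exact permutation test, p = 0.3). Hba-a2 made up 20.8% ± 2.99 of the alpha pair in control and 19.9% ± 2.80 in gSpns1-cKO livers (p = 0.7, exact permutation test). Hbb-bt made up 10.8% ± 0.644 of the beta pair in control and 7.46% ± 2.30 in gSpns1-cKO livers, without overlap (p = 0.1, exact permutation test), a split that rests on how reads of the copies were assigned. Over the 6 libraries Hba-a1 and Hbb-bs, on different chromosomes, followed each other with a Pearson r of 0.998 in log2 CPM, as a description without a test.

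Alas2 and the globins thus parted. For every 100 globin counts there were 146, 121 and 192 counts of Alas2 in controls against 12.0, 7.60 and 4.79 in gSpns1-cKO livers. The log2 ratio of Alas2 to globin counts was 0.59 ± 0.34 in control and -3.72 ± 0.66 in gSpns1-cKO livers (SD, n = 3 each), without overlap (exact permutation test, p = 0.1). In raw counts, control livers held at least as many of Alas2 as of the globins in every library, and no gSpns1-cKO liver did. These counts are not corrected for gene length, 2403 bases for Alas2 and 667 to 812 for the globins, or for reads that globin copies share. Per kb, Alas2 was at 36.6 CPM in controls. The globins were there at 37.9 (Hbb-bs), 26.1 (Hba-a1), 8.34 (Hba-a2) and 5.05 (Hbb-bt), so together above Alas2. In gSpns1-cKO livers Hbb-bs alone was at 50.6 CPM per kb or more, against at most 6.11 for Alas2. The raw counts therefore do not show which transcripts were more abundant, and per kb the globins together exceeded Alas2 in both groups.

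**Figure D4:**
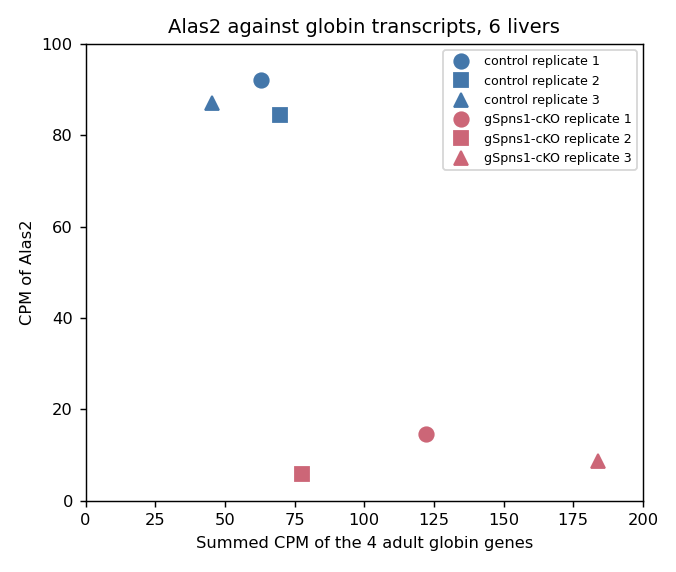
CPM of Alas2 (y axis) against the summed CPM of the 4 globin genes (x axis) in the 6 livers, control in blue and gSpns1-cKO in red. The control livers sit at 84.5 to 92.0 CPM of Alas2 and 45.3 to 69.8 CPM of globins, and the gSpns1-cKO livers at 5.89 to 14.7 CPM of Alas2 and 77.5 to 184 CPM of globins.

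Bpgm, the enzyme that makes 2,3-bisphosphoglycerate in red cells (ENSMUSG00000038871, chromosome 6 from 34476207 to 34505613, plus strand), had 433, 592 and 429 counts in controls against 599, 488 and 606 in gSpns1-cKO livers. The groups overlapped, and the log2 fold change of -0.20 ± 0.14 did not pass (adjusted p = 0.269). With library size only it was 0.24 (adjusted p = 0.179). Slc4a1, the anion exchanger band 3 and a main protein of the red cell membrane (ENSMUSG00000006574, chromosome 11 from 102348824 to 102366203, minus strand), had 1, 6 and 0 counts in controls against 2, 1 and 4 in gSpns1-cKO livers. Of these values, 4 were at or under 3 counts, a floor of 0.0850 to 0.0988 CPM that covers counting error only. It was too low to test, and a difference was not detectable at this depth.

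Of the enzymes after ALAS in heme synthesis, 6 were described as a list. Alad, Urod and Cpox, which carry out early and middle steps, fell by 0.63 (SE 0.11, adjusted p = 0.00122), 0.65 (SE 0.10, 0.000635) and 0.67 (SE 0.14, 0.00410) on the log2 scale. Uros at -0.36 ± 0.19 (adjusted p = 0.149), Ppox at -0.16 ± 0.18 (0.50) and Fech, which inserts the iron, at -0.23 ± 0.12 (0.143) did not pass. So 3 of 6 were lower and none higher, with a median of -0.50, beside 0.01 over all tested genes. Of all tested genes 21.3% were higher and 20.5% lower, the shares beside which the counts of this and the later lists stand. With library size only, 7289 of the 15449 were higher and 970 lower. DESeq2 and limma-voom gave the same 3 genes and none higher, and no enzyme was higher at an unadjusted p under 0.05. With library size only, where the median of all genes was 0.46, none of the 6 passed in either direction, also at an unadjusted p under 0.05, and Uros, Ppox and Fech turned positive. Uros passed without gSpns1-cKO replicate 1 (adjusted p = 0.00304) and with no filter beyond 1 count in any library (0.0390). The log2 fold changes of the 6 enzymes were smaller in size than that of Alas2, a difference that was not tested.

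Of 16 genes for heme and porphyrin transport and its mitochondrial partners, 2 were higher and 7 lower, with a median of -0.27. Flvcr1, a heme exporter, rose by 0.97 (SE 0.20, adjusted p = 0.00343) and Clpx, a mitochondrial unfoldase that acts on ALAS, by 0.38 (SE 0.10, 0.0145; 0.0599 without control replicate 1). Abcb6, a transporter linked to porphyrins, fell by 1.25 (SE 0.28, adjusted p = 0.00510) and Pgrmc1, a heme-binding membrane protein, by 0.92 (SE 0.15, 0.00109). With library size only the list had 6 higher and 3 lower. Of 12 genes for heme use and control of Alas1, 1 was higher and 5 lower, with a median of -0.51 (3 higher and 2 lower with library size only). Ppargc1a, a coactivator that induces Alas1 in fasting, rose by 1.30 (SE 0.28, adjusted p = 0.00822), while Alas1 itself did not pass. The heme enzymes catalase, Cat, and tryptophan dioxygenase, Tdo2, fell by 0.96 (SE 0.19, 0.00281) and 0.95 (SE 0.20, 0.00340).

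In heme breakdown and scavenging, 1 of 9 genes was higher and 2 lower, with a median of 0.13 (5 higher and none lower with library size only). Hmox1, the heme oxygenase that opens the heme ring, had 347, 536 and 385 counts in controls against 2025, 2133 and 2184 in gSpns1-cKO livers and rose by 1.90 (SE 0.13, adjusted p = 7.56e-06). Lrp1, a receptor for hemopexin with heme, fell by 0.74 (SE 0.17, 0.00677), a call lost with library size only (0.165). Hp, which binds free hemoglobin, had 91322, 423014 and 330692 counts in controls against 118484, 107877 and 120970 in gSpns1-cKO livers. Its groups overlapped through control replicate 1, and its log2 fold change of -1.71 ± 0.53 (adjusted p = 0.0450) was lost without control replicate 2 (0.110), control replicate 3 (0.0973), gSpns1-cKO replicate 1 (0.151), gSpns1-cKO replicate 2 (0.154) or gSpns1-cKO replicate 3 (0.131). It was also lost with library size only (0.0855), with upper-quartile scaling (0.0539), with no filter beyond 1 count in any library (0.153) and with the replicate block (0.0957).

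Many genes that define red cells and their precursors were at or near 0, in contrast to the globins. Of 48 matched genes in the lists for the red cell membrane, the red cell cytoplasm and maturation, and erythroid progenitors and regulators, 20 had too few counts to test. In 13 no library was above 3 counts, and Kel, Icam4, Add2, Cldn13, Trim58, Hemgn, Gata1 and Gfi1b, 8 genes, had 0 counts in all 6 libraries. Other genes of erythroid precursors had counts. Of these, Klf1, an activator of the beta globin gene, had 140, 148 and 152 counts in controls against 66, 205 and 91 in gSpns1-cKO livers, a log2 fold change of -0.73 ± 0.37 that did not pass (adjusted p = 0.143). Tal1 rose by 1.02 (SE 0.36, adjusted p = 0.0419). This call was lost with DESeq2, with no filter beyond 1 count in any library, with the replicate block and with any mouse left out. Nfe2 (0.45), Epor (0.46), Lyl1 (0.76) and Kit (-0.02) were tested and did not pass. Epb42, a protein of the red cell membrane skeleton, had at most 5 counts in a library. The globins of the embryo were also at 0, namely Hbb-y, Hbb-bh1, Hbb-bh2 and Hba-x, as was Hbq1a, and Hbq1b had 1 count in gSpns1-cKO replicate 3.

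Of the 28 genes in these lists that could be tested, 5 were higher and 9 lower (11 higher and 4 lower with library size only). Among all 15449 tested genes 21.3% were higher and 20.5% lower (7289 and 970 genes with library size only). The median log2 fold change of the 28 genes was 0.01, the value over all genes. Tfrc, the transferrin receptor, rose by 3.20 (SE 0.25, adjusted p = 6.73e-05), from 489, 348 and 326 counts to 3491, 6407 and 4648. Lmo2, a partner of GATA factors also found in endothelium, rose by 1.22 (SE 0.22, 0.00148), Gypc, a glycophorin, by 1.43 (SE 0.18, 0.000216) and Car2, a carbonic anhydrase, by 2.09 (SE 0.18, 2.32e-05). Car1, the other carbonic anhydrase of red cells, fell by 1.81 (SE 0.25, 0.000326), and Zfpm1, the partner of GATA1, by 1.33 (SE 0.25, 0.00449). Ube2l6, a ubiquitin-conjugating enzyme, fell by 1.07 (SE 0.16, 0.000781) and Sox6, a repressor of embryonic globins, by 0.81 (SE 0.17, 0.00360, and 0.0899 with library size only). Xk, the membrane protein of the Kx blood group, fell by 0.91 (SE 0.27, 0.0203), a call lost with library size only (0.161) and without control replicate 3 (0.0587), gSpns1-cKO replicate 2 (0.0596) or gSpns1-cKO replicate 3 (0.0665). Several of these genes are expressed in other liver cells too.

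**Figure D5:**
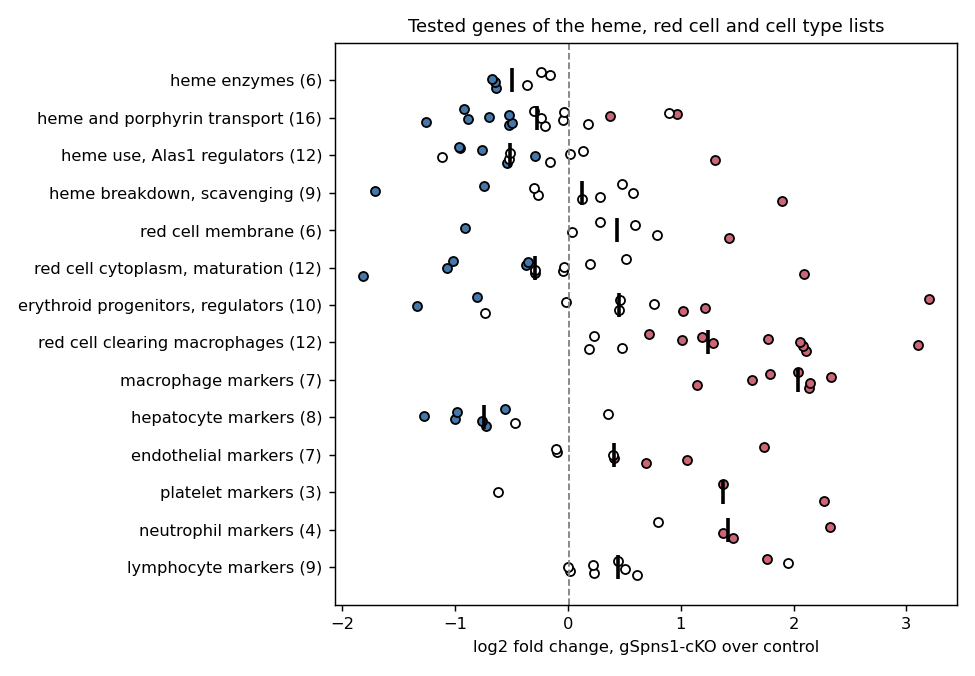
Log2 fold change of gSpns1-cKO over control livers (x axis) for each tested gene of 14 lists, with the number tested in brackets, red for higher and blue for lower at an adjusted p under 0.05, white for the others, a black line at the list's median and a dashed line at the median of all genes. The heme enzymes have a median of -0.50, and all 7 macrophage markers lie to the right.

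Markers of other cells moved with the genotype too. All 7 macrophage markers rose, with a median of 2.04, among them Lyz2 by 2.33 (SE 0.20, adjusted p = 5.13e-05) and Cd68 by 2.14 (SE 0.17, 1.65e-05), and their summed level went from 179 to 290 CPM in control to 682 to 995 CPM in gSpns1-cKO livers. Of 12 genes of the macrophages that clear red cells, 9 rose, with a median of 1.24, among them the scavenger receptor Marco by 3.10 (SE 0.41, 0.00295) and Spic, the factor of iron-recycling macrophages, by 2.11 (SE 0.30, 0.000425). Of 8 hepatocyte markers 6 fell, with a median of -0.75, led by Serpina1a at -1.27 (SE 0.15, 0.000144) and Apoa2 at -1.0 (SE 0.17, 0.00107), and 2 of the 8 were lower and 1 higher with library size only. The log2 fold change of Alas2 lay below those of all 8 hepatocyte markers, a difference that was not tested.

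Most markers of the other blood cells had few counts. Of 9 platelet and megakaryocyte markers, 3 could be tested and 2 rose, Pf4 by 2.27 (SE 0.36, adjusted p = 0.000822) and Clec1b, also a gene of liver macrophages, by 1.37 (SE 0.13, 4.00e-05). The other tested marker, Itga2b, was at -0.62 ± 0.24 without overlap between the groups (adjusted p = 0.0580), and Gp1bb was at 0 in all libraries. Of 10 neutrophil markers, 4 could be tested and 3 rose, among them Retnlg by 2.32 (SE 0.53, 0.00608) and S100a8 by 1.46 (SE 0.37, 0.0107), with a summed level of 2.67 to 5.23 CPM in control and 6.34 to 11.6 in gSpns1-cKO livers. Of 9 lymphocyte markers, 1 rose, Nkg7 by 1.76 (SE 0.48, 0.0137), and the summed level was 4.80 to 5.16 and 7.35 to 8.65 CPM. Of 7 endothelial markers 4 rose, led by Lyve1 at 1.74 (SE 0.39, 0.0126, and 0.0564 without control replicate 1) and Cdh5 at 1.06 (SE 0.13, 0.000163). The part of these cells in the globin and Alas2 differences was not tested.

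The genes whose log2 CPM followed the summed globins most closely over the 6 libraries, among 12913 tested genes averaging 1 CPM or more, were Ltbp2 with a Pearson r of 0.992, Dusp10 with 0.984, Tmem41b with 0.981, Sp2 with 0.976 and Nes with 0.976. None is a red cell gene of the lists. Nes, an intermediate filament gene, had 43, 50 and 33 counts in controls against 172, 106 and 324 in gSpns1-cKO livers, with the same order of the gSpns1-cKO mice as the globins. For Alas1 the closest were Wwc1 with 0.974, N4bp1 with 0.971 and Fkbpl with 0.967. These are descriptions over the same 6 libraries, chosen as the highest of many.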

How the data were processed

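RNA was measured in 6 mouse livers, 3 gSpns1-cKO and 3 control, grouped by the sample labels. The authors deposited unnormalized read counts, a column of whole numbers per library, made from poly-A libraries with fastp, HISAT2 2.0.5, featureCounts 1.5.0-p3 and mm10 per the submitters' processing notes. The strand setting and the treatment of reads with several matches are not given in the sources used here. The authors also deposited FPKM values, gene lengths in bases, and columns of their own comparison, namely a normalized signal per group, a log2 fold change, a p-value and an adjusted p-value, and of these the gene lengths alone were used here.

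Tests ran in edgeR 4.0.16 under R 4.3.3 (filterByExpr, TMM, robust quasi-likelihood fit, no covariate), with Benjamini-Hochberg adjustment over all 15449 genes tested and a threshold of 0.05. SE is the log2 fold change over the square root of F, and CPM per kb divides by the deposited gene length. Ratios and shares were compared by two-sided exact permutation tests. Alternatives were library size only, upper-quartile scaling, DESeq2 1.42.0, voom of limma 3.58.1, 2 other filters, library totals without globins, a replicate block and leaving out each mouse. Where this left a group with 2 mice the fits pooled the spread over both groups. The code was tested on simulated data.

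The members and the gene lists were chosen with earlier results of these data known. Named genes were the members, Spns1, 6 heme enzymes, the 2 most changed called genes per direction of every other list with a mean of at least 1 CPM in the higher group, other globins, and the genes most like the globins (5) and Alas1 (3). Other genes named, such as Klf1, Tal1, Itga2b and Apex2, were picked after their values were seen. Some results are not reported here. Hbb-b1, Hbb-b2 and Ahsp were not matched. Positions are those of the deposited table, equal to GENCODE M21 (GRCm38) for all 8 members. Each mouse is a separate sample, and p-values measure the spread between these mice, with no 2 libraries of a group alike within sampling noise. Floors cover counting error only, while SD and SE include the spread between these mice.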

Additional observations from a re-analysis of the deposited data

How the results depend on the processing

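The call of Alas2 as lower, the counts of members lower and heme enzymes higher, the globin share and the ratio of Alas1 to Alas2 kept their direction and side under all alternatives run for them. The alpha pair (log2 fold change 1.15) passed with library size only (1.59), upper-quartile scaling (1.28), DESeq2 (1.15), limma-voom (1.08) and at least 10 counts in every library (1.20), and leaving out 1 mouse gave 0.75 to 1.41. The beta pair (1.06) no longer passed without a filter beyond 1 count in any library (1.05, adjusted p = 0.0863), and leaving out 1 mouse gave 0.74 to 1.33. Members called higher went from 2 to 1 with that filter (4 at an unadjusted p under 0.05) and ranged from 0 to 4 with 1 mouse left out. Library size only gave 0 heme enzymes lower (from 3, and 0 at an unadjusted p under 0.05), 11 erythroid genes higher (from 5) and 4 lower (from 9). With it, the sign turned for Alas1 (0.38), Bpgm (0.24), Uros (0.0804), Ppox (0.28) and Fech (0.21), none of them called, and Alas1 was also positive with upper-quartile scaling (0.0733). With 1 mouse left out, Alas1 ranged from -0.43 to 0.17 and Ppox from -0.33 to 0.0726. The shifts with library size only go with its shift of the median gene to 0.46, and the cause of the others was not tested.

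Over all tested genes, mice with the same replicate number did not deviate together (correlations between -0.03 and 0.04). Such a correlation cannot decide whether the numbers pair the mice, as single genes may still share an order. A fit with the replicate number as a block called 6100 genes against 6452. It gave the alpha pair 1.08 (adjusted p = 0.151), the beta pair 1.00 (0.136) and Alas2 -3.25 (0.000305). It called 0 members higher, also at an unadjusted p under 0.05. The block lowered the SE of Alas1 from 0.35 to 0.17 and the adjusted p of Spns1 from 0.030 to 0.000679.

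Slc4a1 and 20 of 48 erythroid genes are limited by depth, and the globin changes by the spread between 3 mice per group.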
